A study of Mus musculus with 12 samples.

Results

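The hepatocyte-lineage transcription factors analysed were *Hnf4a*, *Foxa1*, *Foxa2*, *Foxa3*, *Onecut1*, *Onecut2*, *Prox1*, and *Cebpa*, 8 genes chosen by name among the 38127 genes counted in mouse embryonic liver. RNA-seq was performed on 4 populations sorted from C57BL/6 fetal liver (FL), all Ter119- and CD45-, with 3 libraries each. At embryonic day (E) 14.5 these were CD54+CD31- cells, which include hepatoblasts, CD54+CD31+ cells, called CD31+ here, which represent endothelial cells, and CD54-CD31-Kit+CD24+ cells, called P2, which are erythroid progenitors. For the E14.5 libraries the paper names epithelial cadherin, in place of the CD54 of the labels, as the marker of the hepatoblast population. At E18.5 only CD54+CD31- cells were sequenced. The E14.5 libraries came from independent litters, and the origin of the E18.5 replicates is not given in the sources used here, so their p-values measure only the spread between these libraries. The libraries held between 40714017 and 64368883 counts.

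Hepatocytes are specified and maintained by a small set of DNA-binding proteins that bind each other's regulatory regions and the genes of plasma proteins and metabolism. FOXA proteins open chromatin in foregut endoderm, HNF4A drives most of the hepatocyte program, ONECUT1 and ONECUT2 control the balance between hepatocytes and bile ducts, PROX1 is required for hepatoblasts to spread into the liver bud, and C/EBPα favors the hepatocyte over the biliary fate. None is restricted to liver: FOXA1, FOXA2, and C/EBPα also act in lung epithelium, PROX1 in lymphatic endothelium, and C/EBPα in myeloid cells.

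*Hnf4a* (ENSMUSG00000017950, GRCm38 chromosome 2, 163506808 to 163572910, plus strand) has 2 start sites far apart, the upstream one used in pancreas and the downstream one used in adult liver. *Foxa1* (ENSMUSG00000035451) lies on chromosome 12 from 57540628 to 57546916, *Foxa2* (ENSMUSG00000037025) on chromosome 2 from 148042877 to 148046969, and *Foxa3* (ENSMUSG00000040891) on chromosome 7 from 19013284 to 19023538, all on the minus strand. *Onecut1* (ENSMUSG00000043013) lies on chromosome 9 from 74861921 to 74891781, plus strand, *Prox1* (ENSMUSG00000010175) on chromosome 1 from 190118035 to 190170714, minus strand, and *Cebpa* (ENSMUSG00000034957) on chromosome 7 from 35119293 to 35121928, plus strand. *Onecut2* is ENSMUSG00000045991.

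RefSeq promoter windows of GRCm38.p6, the 250 bases before each start site, were searched on both strands for short motifs of the same factor families. The reason was that all 8 genes were higher in CD54+CD31- cells of both ages than in CD31+ and P2 cells. The letters were TGTTTNC for FOXA, present in 17.8% of 32851 windows of this length, ATCAAT for ONECUT (6.72%), CAAAGNCCA for HNF4 (1.70%), and TTGCNNAA for C/EBP (9.56%). Of the 11 windows of 7 of the genes, 4 held at least 1 match, and they belonged to *Hnf4a*, *Foxa1*, *Foxa2*, and *Prox1*. The share of all windows that match any of the 4 motifs was not counted, so this number is not read as a trait of these genes. No window held the HNF4 or the C/EBP letters, and those of *Foxa3*, *Onecut1*, and *Cebpa* held none of the 4 motifs. Only windows with a match are printed below, those of *Hnf4a*, *Foxa1*, and *Foxa2*, while that of *Prox1* is left out. They are cut to the part outside annotated exons, with the motif matches in capitals. The window of the downstream *Hnf4a* start and the other windows of *Foxa2* held none of the 4 motifs.
*Hnf4a*, upstream start, chr2:163506607-163506807, plus strand, a FOXA match beginning at -238 and an ONECUT match at -59 from the start site: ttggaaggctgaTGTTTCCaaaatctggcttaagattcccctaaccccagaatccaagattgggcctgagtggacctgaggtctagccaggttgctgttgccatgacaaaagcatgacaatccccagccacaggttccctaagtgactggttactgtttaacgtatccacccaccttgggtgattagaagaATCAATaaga
*Foxa1*, chr12:57546122-57546361, minus strand, a FOXA match beginning at -141: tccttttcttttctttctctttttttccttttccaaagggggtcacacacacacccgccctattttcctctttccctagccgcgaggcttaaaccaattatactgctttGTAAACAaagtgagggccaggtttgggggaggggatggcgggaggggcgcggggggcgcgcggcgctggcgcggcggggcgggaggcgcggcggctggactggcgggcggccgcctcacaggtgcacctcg
*Foxa2*, the start farthest upstream, chr2:148046970-148047219, minus strand, an ONECUT match beginning at -213: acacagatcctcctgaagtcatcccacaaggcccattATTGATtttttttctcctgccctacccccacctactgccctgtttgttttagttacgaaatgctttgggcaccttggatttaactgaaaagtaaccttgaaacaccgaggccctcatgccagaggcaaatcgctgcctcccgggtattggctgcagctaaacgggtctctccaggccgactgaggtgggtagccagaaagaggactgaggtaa
These matches describe letters in a window and were not tested as binding sites, and the counts per gene do not separate the start sites.

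The sorted populations were checked by marker genes, with levels given in CPM, counts scaled to a common TMM-adjusted library size. The 10 endothelial genes summed to between 10830 and 11473 CPM in CD31+ libraries and to at most 482 CPM elsewhere, led by *Kdr*, *Stab2*, and *Lyve1*. The 10 erythroid genes, led by *Tfrc*, *Ermap*, and *Slc4a1*, summed to between 2846 and 3033 CPM in P2 and to at most 890 CPM elsewhere, with *Alas2* at 0 in every library. *Slc4a1* went against the list, with a mean of 224 CPM in E14.5 CD54+CD31- cells and 120 CPM in P2 cells. The 20 hepatocyte targets, led by *Alb*, *Afp*, and *Apoa1*, summed to between 78606 and 90905 CPM in E14.5 CD54+CD31- cells, between 959 and 1077 CPM in CD31+ cells, and between 763 and 764 CPM in P2 cells. In E18.5 cells they summed to 3731 CPM in replicate 1, 42010 CPM in replicate 2, and 55197 CPM in replicate 3. The 10 macrophage genes summed to between 1352 and 1605 CPM in CD31+ libraries, of which *Mrc1*, also an endothelial gene of liver sinusoids, held a mean of 1416 CPM, and to at most 247 CPM elsewhere, with *Csf1r* and *Marco* next.

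The E18.5 libraries also held genes of other cell types and tissues. The 15 lung epithelial genes summed to between 12183 and 25804 CPM in them and to between 113 and 256 CPM in the others, with surfactant protein C (*Sftpc*) at 12377 CPM in replicate 1, 5095 CPM in replicate 2, and 5404 CPM in replicate 3, and *Slc34a2* and *Sftpb* next. The 13 genes of mesenchyme and mesothelium, led by *Col1a1*, *Col3a1*, and *Col1a2*, summed to between 4294 and 4893 CPM there and to at most 248 CPM elsewhere. The 8 biliary genes, led by *Krt19*, *Krt7*, and *Sox4*, summed to between 988 and 1418 CPM there and to at most 94.6 CPM elsewhere, while the 10 gut and pancreas genes, among them *Cpa1*, *Vil1*, and *Ins2*, summed to at most 16.1 CPM in any library, with *Ptf1a* at 0 throughout. Replicate 1 stood apart from the other E18.5 libraries, with the lowest hepatocyte and the highest lung sum, so the levels of the factors at E18.5 are given per library, and fold changes by age and list counts are also given without it.

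All 8 factors had their lowest mean in P2 cells and their second lowest in CD31+ cells, and the 8 genes differed in whether E14.5 or E18.5 CD54+CD31- cells had the highest. *Hnf4a*, the nuclear receptor that activates most hepatocyte genes, had 574, 546, and 558 CPM in the E14.5 CD54+CD31- libraries, 15.6, 122, and 166 CPM in the E18.5 libraries, 9.81, 6.95, and 8.43 CPM in CD31+ libraries, and 7.14, 8.18, and 7.59 CPM in P2 libraries. CD31+ and P2 libraries overlapped for this gene, and every other pair of populations was separate.

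Among the FOXA pioneer factors, *Foxa1* had 47.3, 40.3, and 43.5 CPM in E14.5 CD54+CD31- cells, 84.8, 59.3, and 56.2 CPM at E18.5, 1.15, 0.837, and 0.872 CPM in CD31+ cells, and 0.827, 1.02, and 0.866 CPM in P2 cells. *Foxa2* had 39.8, 39.4, and 33.9 CPM in E14.5 CD54+CD31- cells, 60.8, 46.8, and 43.0 CPM at E18.5, 0.682, 0.570, and 0.745 CPM in CD31+ cells, and 0.345, 0.271, and 0.327 CPM in P2 cells. For both genes the 3 E18.5 libraries were above the 3 E14.5 libraries. *Foxa3*, the FOXA member that becomes the most abundant one in liver, had the opposite order, with 78.2, 64.7, and 77.2 CPM at E14.5 and 1.98, 9.74, and 13.9 CPM at E18.5. It had 1.15, 0.802, and 1.27 CPM in CD31+ cells and 0.368, 0.645, and 0.462 CPM in P2 cells.

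Of the ONECUT factors, *Onecut1* had 69.7, 64.3, and 66.8 CPM in E14.5 CD54+CD31- cells and 15.6, 114, and 136 CPM at E18.5, where 1 library was below and 2 were above all E14.5 libraries. It had 1.58, 1.32, and 1.16 CPM in CD31+ cells and 0.781, 0.999, and 0.963 CPM in P2 cells. *Onecut2* had 137, 120, and 167 CPM in E14.5 CD54+CD31- cells, 14.9, 69.2, and 75.9 CPM at E18.5, 2.75, 4.08, and 4.94 CPM in CD31+ cells, and 2.18, 1.29, and 1.92 CPM in P2 cells. Its 4 populations did not overlap.

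*Prox1*, a homeodomain factor of hepatoblasts and lymphatic endothelium, had 321, 256, and 316 CPM in E14.5 CD54+CD31- cells, 19.2, 83.6, and 99.9 CPM at E18.5, 12.4, 9.03, and 12.8 CPM in CD31+ cells, and 3.65, 3.70, and 3.72 CPM in P2 cells. *Cebpa*, a leucine zipper factor of metabolic genes, had 188, 184, and 168 CPM in E14.5 CD54+CD31- cells, 158, 168, and 200 CPM at E18.5, 9.79, 7.73, and 9.84 CPM in CD31+ cells, and 1.59, 2.21, and 1.89 CPM in P2 cells. The *Cebpa* libraries of the 2 ages overlapped, and the *Prox1* libraries of all 4 populations were separate.

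**Figure D1:**
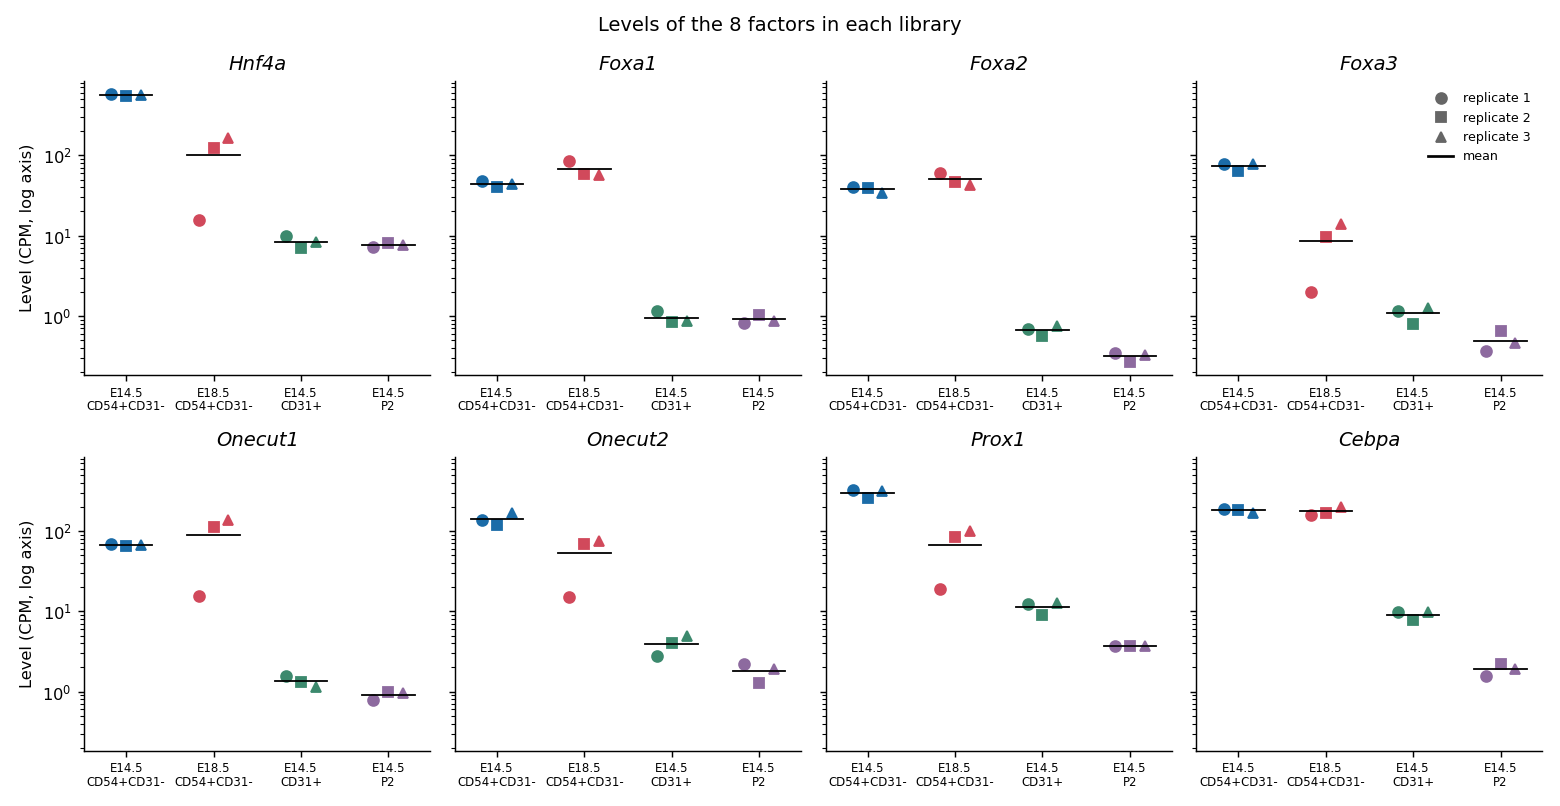
Level of each of the 8 factors in every library, in CPM on a log axis, with 1 panel per gene, 1 color per population, 1 symbol per replicate number, and the mean of 3 libraries as a bar. *Hnf4a* lies between 546 and 574 CPM in E14.5 CD54+CD31- cells and below 10 CPM in CD31+ and P2 cells, and E18.5 replicate 1 is far below its group for *Hnf4a*, *Foxa3*, *Onecut1*, *Onecut2*, and *Prox1*.

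Levels of different genes were compared per kb of exon. In E14.5 CD54+CD31- cells *Hnf4a* was the highest, with 116 ± 2.86 CPM per kb (SD, n = 3), rank 261 of 16617 genes, followed by *Cebpa* with 68.3 ± 3.95 CPM per kb, rank 497. *Foxa3* with 36.0 ± 3.70 and *Prox1* with 35.5 ± 4.27 CPM per kb did not differ beyond their spread, nor did *Onecut1* with 16.3 ± 0.651 and *Foxa2* with 15.9 ± 1.398 CPM per kb. *Foxa1* had 13.1 ± 1.06 CPM per kb, and *Onecut2*, whose exons span 16.2 kb, had the lowest value with 8.72 ± 1.47 CPM per kb, rank 4470. In E18.5 cells *Cebpa* was first in every library, with 66.6 ± 8.34 CPM per kb (SD, n = 3) and rank 270, or rank 247 without replicate 1. The order of the others depended on the library. In replicate 1 *Foxa2* with 25.7 and *Foxa1* with 25.5 CPM per kb stood above *Onecut1* with 3.801 and *Hnf4a* with 3.24 CPM per kb. In replicates 2 and 3 the order was the opposite, with 27.6 and 33.0 CPM per kb for *Onecut1*, 25.3 and 34.3 for *Hnf4a*, 19.8 and 18.1 for *Foxa2*, and 17.8 and 16.9 for *Foxa1*. The means over all 3 libraries, 21.5 ± 15.5 for *Onecut1*, 21.2 ± 3.96 for *Foxa2*, 20.9 ± 16.0 for *Hnf4a*, and 20.1 ± 4.72 CPM per kb for *Foxa1*, therefore lay within each other's spread. *Prox1* with 8.06 ± 5.09, *Foxa3* with 4.20 ± 2.97, and *Onecut2* with 3.29 ± 2.06 CPM per kb had the lowest means and were below the other 5 factors in each E18.5 library.

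P2 and CD31+ cells were compared with E14.5 CD54+CD31- cells to ask how far the factors separate hepatoblast-containing cells from the erythroid and endothelial populations. In P2 cells all 8 genes fell and passed a threshold of 0.05 on the adjusted p (quasi-likelihood test of edgeR, corrected over 15461 genes by Benjamini-Hochberg), as did 36.1% of all genes tested in this direction, and all 8 fell by over 8-fold, as 13.9% of all genes did. The median log2 fold change was -6.33 for the 8 genes and -0.01 for all genes tested. *Foxa3* had the largest difference, 149.8-fold lower in P2 cells (log2 fold change -7.23 ± 0.23 SE, adjusted p = 1.23e-09), and *Foxa1* the smallest, 48.8-fold lower (log2 fold change -5.61 ± 0.17, adjusted p = 8.4e-10). *Hnf4a* was 74.2-fold lower and *Cebpa* 96.2-fold lower. In bulk RNA, fewer cells of a type and less RNA per cell cannot be told apart.

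In CD31+ cells all 8 genes were also lower than in CD54+CD31- cells, as were 34% of all genes tested, and all 8 fell by over 8-fold, as 7.32% of all genes did. The median log2 fold change was -5.58 for the 8 genes and -0.03 for all genes. The difference was largest for *Foxa3*, 68.4-fold lower (log2 fold change -6.10 ± 0.21 SE, adjusted p = 2.66e-09), and *Hnf4a*, 67.0-fold lower. It was smallest for *Prox1*, 26.3-fold lower (log2 fold change -4.71 ± 0.16, adjusted p = 2.59e-09), and *Cebpa*, 19.8-fold lower (log2 fold change -4.31 ± 0.14, adjusted p = 2.37e-09). These comparisons share the CD54+CD31- libraries.

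Expressed as a percentage of the mean in E14.5 CD54+CD31- cells, the 8 factors stood between 0.670% and 2.07% in P2 cells, with a median of 1.26%. The 20 hepatocyte targets had a median of 0.911% in the same libraries, and *Alb*, the plasma albumin gene, stood at 0.865%. In P2 cells no factor stood above the range of the targets, which ran to 2.20% for *Pck1* apart from *Tdo2*, a gene below 1 CPM in both populations, at 62.9%. In CD31+ cells the factors stood between 1.46% for *Foxa3* and 5.06% for *Cebpa*, with a median of 2.10%, against a median of 1.39% for the targets and 1.07% for *Alb*. There *Cebpa* at 5.06%, *Prox1* at 3.82%, and *Onecut2* at 2.77% stood above the highest target other than *Tdo2*, *Hamp* at 2.34%. *G6pc* was at 0 in both populations. The part of hepatocyte RNA in the counts of P2 and CD31+ libraries was not tested.

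**Figure D2:**
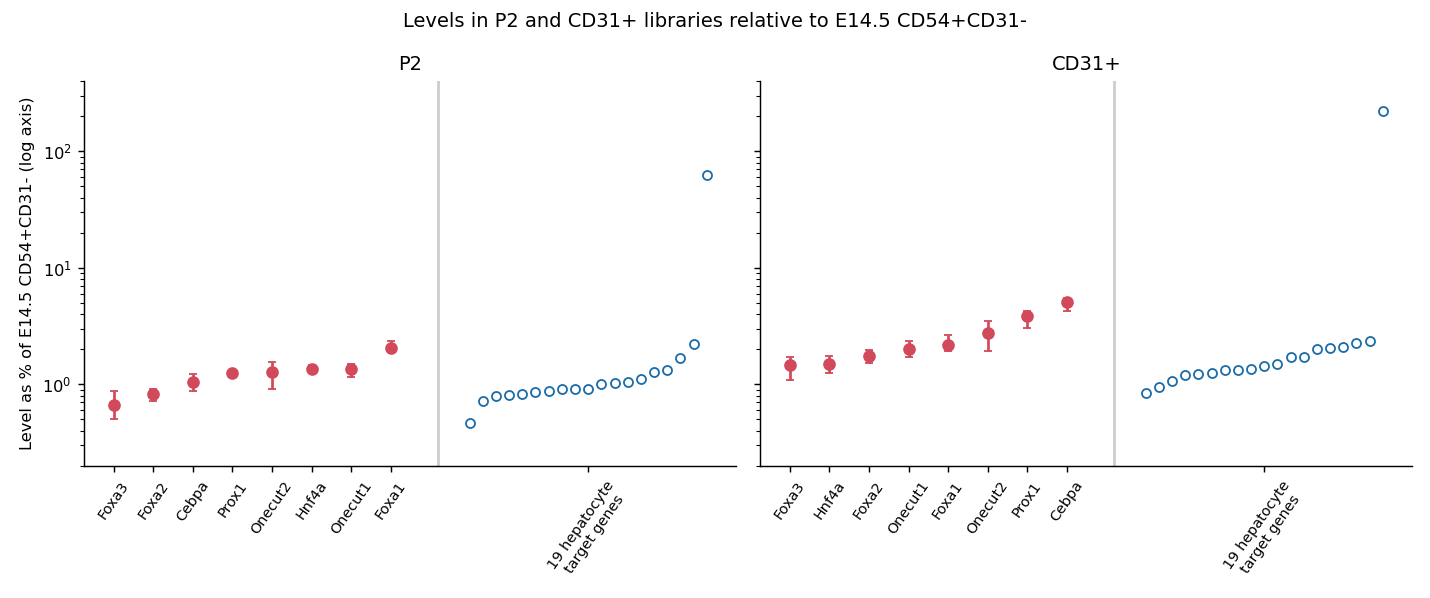
Mean level in P2 (left) and CD31+ libraries (right) as a percentage of the mean in E14.5 CD54+CD31- libraries, on a log axis, for the 8 factors (red, bars from the lowest to the highest of 3 libraries) and for the 19 hepatocyte targets above 0 (blue, means only). The factors lie between 0.670% and 2.07% in P2 and between 1.46% and 5.06% in CD31+ cells, where *Prox1* and *Cebpa* are the highest factors.

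Directly compared, 6 of the 8 factors had less RNA in P2 than in CD31+ cells and 2 did not pass the test, while 39.4% of all genes tested were lower. *Cebpa* was 4.85-fold lower in P2 cells (log2 fold change -2.28 ± 0.14 SE, adjusted p = 3.02e-07), and *Prox1* 3.11-fold lower (log2 fold change -1.64 ± 0.15, adjusted p = 3.39e-06). *Onecut2*, *Foxa3*, and *Foxa2* were 2.21-fold, 2.19-fold, and 2.14-fold lower, and *Onecut1* was 1.48-fold lower. *Hnf4a* had a log2 fold change of -0.15 ± 0.12 (adjusted p = 0.296) and *Foxa1* of -0.08 ± 0.17 (adjusted p = 0.678). *Alb* differed by a log2 fold change of -0.31 ± 0.08 and the median of the 19 targets tested by -0.63, beside -1.11 for the factors and -0.13 for all genes. When the E18.5 libraries joined the fit, *Foxa3*, *Onecut1*, and *Onecut2* no longer passed (adjusted p = 0.132, 0.467, and 0.0689), and *Onecut1* was also lost without P2 replicate 1 (adjusted p = 0.0659).

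**Figure D3:**
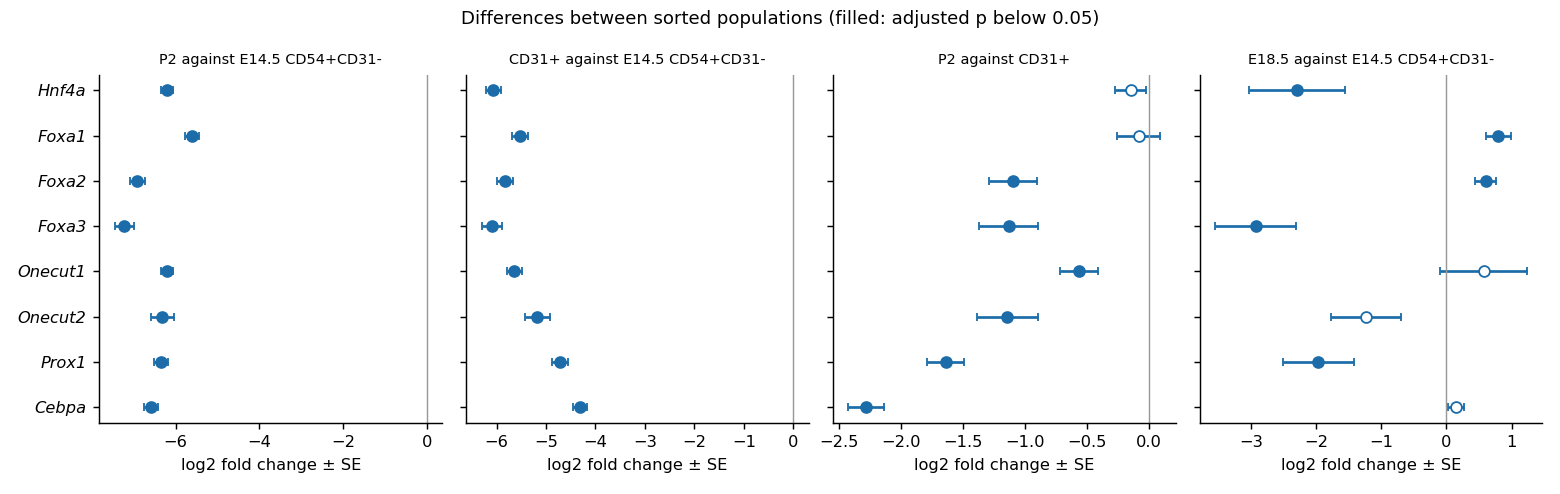
Log2 fold change ± SE of the 8 factors in 4 comparisons, each with its own horizontal scale. Filled points passed an adjusted p of 0.05. All 8 factors lie between -7.23 and -4.31 in the comparisons of P2 and CD31+ with CD54+CD31- cells, and only the comparison by age has factors on both sides of 0.

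CD54+CD31- cells were compared between E18.5 and E14.5. *Foxa1* and *Foxa2* rose, *Foxa3*, *Hnf4a*, and *Prox1* fell, and *Onecut1*, *Onecut2*, and *Cebpa* did not pass the test. Of all 15863 genes tested, 35.9% were higher and 33.5% lower, so the share of factors called was close to that of all genes, and the median log2 fold change was -0.54 for the factors and 0.03 for all genes. The fold changes come from a fit of the 6 CD54+CD31- libraries, and the median of all genes shifted by -0.19 on the log2 scale in a fit of all 12 libraries.

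*Foxa1* was 1.74-fold higher at E18.5 (log2 fold change 0.80 ± 0.19 SE, adjusted p = 0.00786) and *Foxa2* 1.52-fold higher (log2 fold change 0.60 ± 0.16, adjusted p = 0.015). *Foxa3* was 7.60-fold lower (log2 fold change -2.93 ± 0.62, adjusted p = 0.0052), so the 3 FOXA genes did not change in the same direction, and this held under every scaling tried. *Hnf4a* was 4.91-fold lower (log2 fold change -2.30 ± 0.74, adjusted p = 0.0284). With 1 library left out, *Hnf4a* did not pass in 4 of 6 cases, those without any 1 of the E14.5 libraries or without E18.5 replicate 2 (adjusted p between 0.0624 and 0.0709). *Prox1* was 3.90-fold lower (log2 fold change -1.96 ± 0.55, adjusted p = 0.0163) and did not pass without E14.5 replicate 1 (adjusted p = 0.0511). *Onecut2* had a log2 fold change of -1.23 ± 0.54 (adjusted p = 0.0799), *Onecut1* of 0.57 ± 0.66 (adjusted p = 0.469), and *Cebpa* of 0.14 ± 0.12 (adjusted p = 0.318), whose sign turned to -0.04 in the fit of all 12 libraries.

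Within the E18.5 group, the factors divided by how replicate 1 stood to the mean of replicates 2 and 3. The ratio was 0.109 for *Hnf4a*, 0.125 for *Onecut1*, 0.167 for *Foxa3*, 0.206 for *Onecut2*, and 0.209 for *Prox1*. It was 0.858 for *Cebpa*, 1.35 for *Foxa2*, and 1.47 for *Foxa1*. In the same libraries the hepatocyte targets had a median ratio of 0.0779, with 19 of 20 below 1, and the lung epithelial genes a median of 1.81, with all 15 above 1. The 13 genes of mesenchyme and mesothelium had a median of 1.107, with 8 above 1, the 8 biliary genes of 1.26, with 6 above 1, and the 20 other liver factors of 0.371. The 9 erythroid genes detected had a median of 0.245 and the 10 macrophage genes of 0.334, and all of these were below 1 as well. The part of lung, biliary, or mesenchymal cells in the levels of *Foxa1*, *Foxa2*, and *Cebpa* at E18.5 was not tested.

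**Figure D4:**
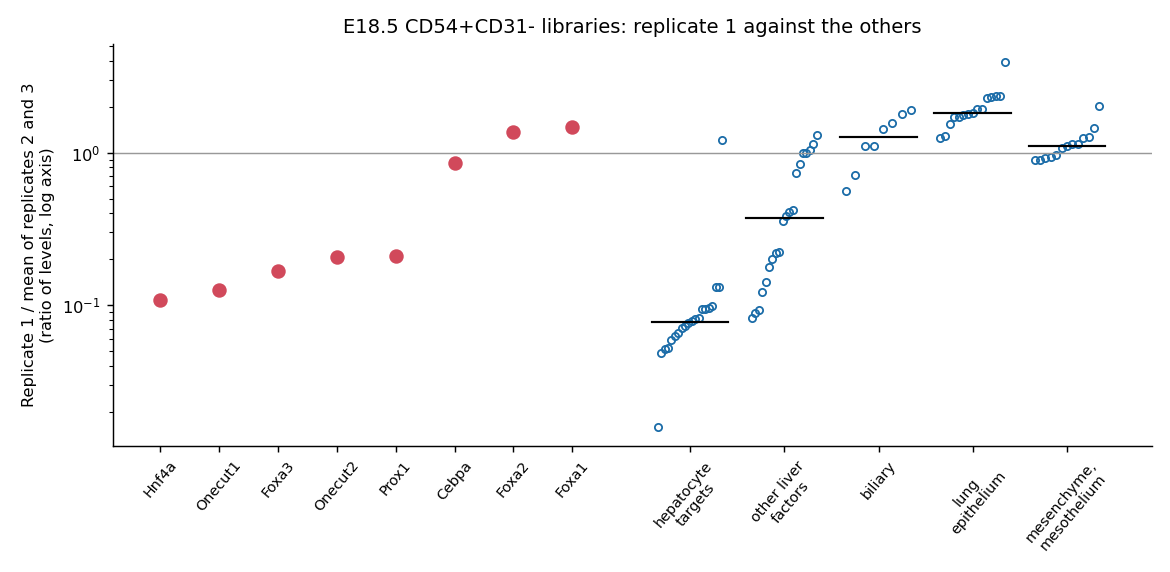
Level in E18.5 CD54+CD31- replicate 1 divided by the mean of replicates 2 and 3, on a log axis, for the 8 factors (red) and 5 lists of genes (blue, 1 point per gene, bars at the median, genes sorted by value). *Hnf4a* at 0.109 is nearest to the hepatocyte targets, whose median is 0.0779, and *Foxa1* at 1.47 and *Foxa2* at 1.35 lie above 1, between the medians of the biliary (1.26) and the lung epithelial genes (1.81).

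Without E18.5 replicate 1, 7 of the 8 factors passed, 3 of them higher and 4 lower, while 36.8% of all 16074 genes tested were higher and 35.9% lower. *Onecut1* rose (log2 fold change 1.06, adjusted p = 1.65e-05) and *Onecut2* fell (log2 fold change -0.80, adjusted p = 0.000621). *Foxa1* remained higher with 0.57 and *Foxa2* with 0.42, and *Foxa3*, *Hnf4a*, and *Prox1* remained lower with -2.47, -1.79, and -1.53. *Cebpa* had 0.20 (adjusted p = 0.124).

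To set the factors against each other without a library scale, the counts of each were divided by the *Hnf4a* counts of the same library. The ratio of *Onecut1* to *Hnf4a* was 0.121, 0.118, and 0.120 in the E14.5 libraries and 1.00, 0.932, and 0.819 in the E18.5 libraries, a 7.64-fold difference, and replicate 1 was close to the other E18.5 libraries. The ratio of *Cebpa* was 0.328, 0.337, and 0.302 at E14.5 and 10.1, 1.38, and 1.21 at E18.5, and that of *Foxa1* was 0.0825, 0.0737, and 0.0778 at E14.5 and 5.42, 0.486, and 0.339 at E18.5. For *Foxa2* the ratio was 0.0694, 0.0722, and 0.0607 at E14.5 and 3.89, 0.384, and 0.260 at E18.5. In these 3 genes replicate 1 was far above the others. *Onecut2* was 2.51-fold and *Prox1* 1.51-fold higher relative to *Hnf4a* at E18.5, with no overlap between ages. *Foxa3*, at 0.136, 0.118, and 0.138 at E14.5 and 0.127, 0.0800, and 0.0841 at E18.5, overlapped.

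The 6 ratios without overlap each gave an exact two-sided permutation p of 0.1, the smallest that 3 against 3 libraries allow, and 0.117 after adjustment over 7 ratios, and *Foxa3* gave 0.2, so no ratio could pass 0.05. With *Alb* as the reference, the ratio of *Onecut1* was 0.00170, 0.00138, and 0.00143 at E14.5 and 0.00650, 0.00427, and 0.00393 at E18.5, again without overlap but with a difference of 3.19-fold in place of 7.64-fold. The differences of *Foxa1* (5.16-fold), *Foxa2* (4.53-fold), and *Cebpa* (3.33-fold) were also smaller than with *Hnf4a*, where they were 12.4-fold, 10.8-fold, and 7.97-fold, and the ages remained separate. The *Onecut2* difference was 1.05-fold with overlapping ages, and that of *Prox1* turned to -0.67 on the log2 scale, also with overlap. *Foxa3* was 3.30-fold lower relative to *Alb* at E18.5, and *Hnf4a* itself 2.40-fold lower, both without overlap.

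**Figure D5:**
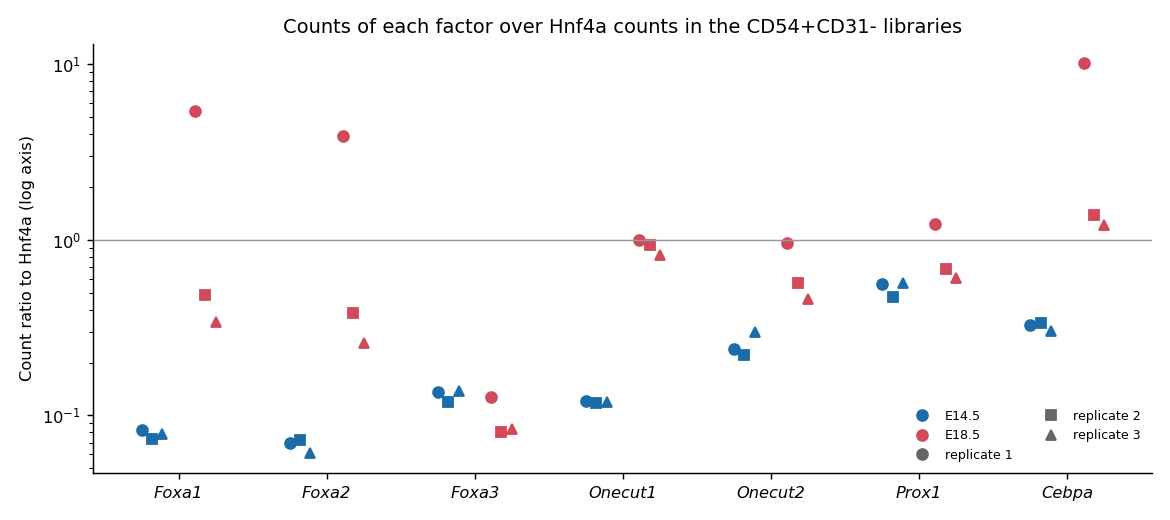
Counts of 7 factors divided by *Hnf4a* counts in the same CD54+CD31- library, on a log axis, at E14.5 (blue) and E18.5 (red), with 1 symbol per replicate number. *Onecut1* moves from between 0.118 and 0.121 to between 0.819 and 1.00 with little spread in either age, while *Foxa1*, *Foxa2*, and *Cebpa* have a replicate 1 far above the other E18.5 libraries.

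The other 20 liver transcription factors were lower in P2 than in E14.5 CD54+CD31- cells in 20 of 20 cases, with a median log2 fold change of -4.78. Of all genes tested, 36.1% were lower in P2 cells. In CD31+ cells 13 were lower, 3 were higher, and 4 did not pass, beside 34% lower among all genes. *Nr2f2*, a venous and lymphatic endothelial receptor, was higher by a log2 fold change of 3.17, *Esrrg* by 1.67, and *Zhx2* by 0.69, while *Nr5a2* (0.43), *Zbtb20* (0.11), *Hhex* (-0.05), and *Nr0b2* (-0.71) did not pass. Compared with CD31+ cells, P2 cells were lower for 17 of the 20 and 3 did not pass, beside 39.4% lower among all genes. At E18.5, 5 were higher, 8 lower, and 7 did not pass, beside 35.9% higher and 33.5% lower among all genes. *Foxq1*, *Nr2f2*, *Zbtb20*, and *Zhx2* were among the higher ones, and *Nr5a2*, *Hhex*, *Tbx3*, and *Xbp1* among the lower ones, with log2 fold changes of -2.10, -2.15, -2.94, and -1.14. Without E18.5 replicate 1, 7 were higher, 9 lower, and 4 did not pass, beside 36.8% higher and 35.9% lower among all genes. In that fit *Nr5a2* stood at -1.66, *Hhex* at -1.84, *Tbx3* at -3.02, and *Xbp1* at -1.08.

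Of the hepatocyte targets tested, 18 of 19 were lower in P2 and in CD31+ cells than in CD54+CD31- cells, and *Tdo2* did not pass in either. Of all genes tested, 36.1% were lower in P2 and 34% in CD31+ cells. At E18.5, 4 of 20 rose, 5 fell, and 11 did not pass, beside 35.9% higher and 33.5% lower among all genes tested. These counts are therefore not read as a trait of the targets. *Cps1* of the urea cycle, *G6pc* of glucose release, *Cyp7a1* of bile acid synthesis, and *Tdo2* of tryptophan breakdown rose, and *Afp*, *Apoa2*, *Gys2*, and *Otc* were among those that fell. *Alb* had a log2 fold change of -0.91 ± 0.88 SE (adjusted p = 0.391). Without E18.5 replicate 1, 8 of the 20 targets rose, 8 fell, and 4 did not pass, among them *Alb* (log2 fold change -0.38 ± 0.25 SE, adjusted p = 0.204). Of all genes tested without that library, 36.8% were higher and 35.9% lower. With all 6 libraries 14 of 15 lung epithelial, 13 of 13 mesenchymal and mesothelial, 10 of 10 endothelial, and 7 of 8 biliary genes rose, and without E18.5 replicate 1 the counts were 14, 13, 10, and 8.

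The 7 paralogs of the factors did not all follow them. *Hnf4g*, the HNF4 paralog, had a mean of 7.91 ± 1.01 CPM (SD, n = 3) in E14.5 CD54+CD31- cells, was 49.5-fold lower in P2 cells and 15.9-fold lower in CD31+ cells, and fell 6.12-fold at E18.5. *Onecut3* was at or below 1.25 CPM in every library, was lower in P2 and CD31+ than in E14.5 CD54+CD31- cells, and fell 4.98-fold at E18.5. Among the C/EBP genes, *Cebpg*, a partner that lacks an activation domain, had 51.0 ± 3.05 CPM in E14.5 CD54+CD31- cells, 37.3 ± 6.42 at E18.5, 45.3 in CD31+ cells, and 30.0 in P2 cells. *Cebpd* rose 13.3-fold at E18.5, from 3.85 ± 0.934 to 44.5 ± 16.7 CPM, and was 4.76-fold higher in CD31+ than in E14.5 CD54+CD31- cells. *Cebpb* rose 2.19-fold at E18.5 and was lower in P2 and CD31+ cells. *Cebpe*, a granulocyte gene, was below 4 CPM in every library and was higher in CD31+ than in CD54+CD31- cells by a log2 fold change of 2.72 ± 0.89. *Prox2* lay between 1.79 and 4.22 CPM, was higher in P2 than in E14.5 CD54+CD31- cells by a log2 fold change of 0.80 ± 0.27, and rose 1.94-fold at E18.5. Without E18.5 replicate 1 the same 5 paralogs passed by age, with *Hnf4g* 4.55-fold and *Onecut3* 4.22-fold lower and *Cebpd* 10.2-fold, *Cebpb* 2.18-fold, and *Prox2* 1.81-fold higher. Of all genes tested without that library, 36.8% were higher and 35.9% lower.

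Genes that overlap the factors could share reads with them where counting ignored strand, which the sources used here do not state. *Prox1os*, antisense to *Prox1* with 133 shared exon bases, had 835, 556, and 849 counts in E14.5 CD54+CD31- libraries and between 28 and 129 counts in CD31+ and P2 libraries. It was 33.3-fold lower in P2 and 15.1-fold lower in CD31+ cells. The *Prox1* counts of the same E14.5 CD54+CD31- libraries were 11330, 8143, and 12800. *Hnf4aos* had at most 24 counts and shares no exon base with *Hnf4a*, and *Gm45091*, which shares 51 bases with *Cebpa*, had at most 40 counts. *Gm28172*, antisense to *Prox1*, was at 0. *Gm20649*, on the strand of *Onecut1* with 2171 shared exon bases, and *Gm25881*, inside *Hnf4a*, were not analysed here.

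The genes most like each factor over the 12 libraries were found by Pearson's r of log2(CPM + 1) among 16642 genes. These values are descriptions, since the 12 libraries fall into 4 populations that all genes share. *Hnf4a* was most like *Klb* (r = 0.999), *Itih2*, and *Creb3l3*, *Foxa3* most like *Aldh1b1* (r = 0.998), *Ank2*, and *Hlf*, and *Onecut1* most like *Ahsg* (r = 0.999), *Mat1a*, and *Pbld2*. *Foxa1* was most like *Cdh1* (r = 0.999), which encodes epithelial cadherin, *Mgat3*, and *Neu2*, and *Foxa2* was most like *Cdh1* (r = 0.999), *Tmprss2*, and *Eps8l2*. *Cdh1* had a mean of 462 CPM in E14.5 CD54+CD31- cells and 771 CPM at E18.5. The paper names epithelial cadherin as the marker of the hepatoblast population it sorted at E14.5 for RNA-seq, where the labels name CD54. *Onecut2* was most like *Lpl* (r = 0.995), *Agtr1a*, and *Agt*, *Prox1* most like *Shroom1* (r = 0.997), *Hoga1*, and *Sema4g*, and *Cebpa* most like *Hunk* (r = 0.997), *Pafah2*, and *Anxa4*. Among the 8 factors, r was highest between *Foxa1* and *Foxa2* (0.998) and between *Hnf4a* and *Foxa3* (0.991), and lowest between *Foxa1* and *Foxa3* (0.773).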

How the data were processed

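The authors dissociated FL with liberase, per the labels, or by passage through a needle, per the study's methods, which name no enzyme for this step. They sorted the cells, removed ribosomal RNA, prepared stranded total RNA libraries, trimmed reads with cutadapt 1.11, aligned them to GRCm38 (mm10) with STAR 2.5.0a, and counted them per gene with featureCounts 1.4.6-p3, per the submitters' processing notes. Strand and multimapping settings of the counting are not given in the sources used here. The authors deposited raw counts per gene, used for all tests, and a score, which is that count times a factor of the library, rounded, and used only to read that factor.

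Counts were tested in R 4.3.3 with edgeR 4.0.16 by the quasi-likelihood test, after TMM scaling and filterByExpr, with 0.05 as the threshold on p-values adjusted by Benjamini-Hochberg. Population was the single term of the model. One fit held the 9 E14.5 libraries and another the 6 CD54+CD31- libraries of both ages. A standard error (SE) is the size of the log2 fold change over the square root of its F statistic. Levels are CPM, scaled by the TMM-adjusted library size over all 12 libraries, divided by GENCODE vM21 exon length where genes are compared. Ratios used counts with 0.5 added and exact permutation tests (scipy 1.17.1). DESeq2 1.42.0 was an alternative. Replicates of a population differed by at least 38.6 in chi-square per degree of freedom, so none was taken for a duplicate. At these depths the number of libraries, 3 per population, limits precision more than counting error for genes with many counts. Some factors had few counts in P2 libraries, such as *Foxa2* with 15, 13, and 17 and *Foxa3* with 16, 31, and 24.

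Replicate numbers come from the sample labels. Deviations of same-numbered libraries correlated at 0.334, 0.260, and 0.122 between CD31+ and CD54+CD31- cells at E14.5. The numbers were therefore taken to pair those libraries. Between P2 and CD31+ cells the values were 0.0152, 0.0767, and 0.336, so this measure does not settle whether those libraries are paired. By the same measure the numbers were not taken to pair P2 with CD54+CD31- libraries or E18.5 with E14.5 libraries. The fold changes, SE, and p-values printed for that comparison come from the fit without a replicate block, which leaves this pairing out. The replicate block changed no call of the 8 factors between CD31+ and CD54+CD31- cells.

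List counts by age and levels per kb without E18.5 replicate 1 were added after the data were seen. The factors and gene lists were chosen with earlier results of these data known. The text names all 8 factors, their 7 paralogs, the 3 genes of highest mean level in each other list, exceptions in a list, the 3 most alike genes of each factor, and overlapping genes. *Pck1*, *Hamp*, *Tdo2*, *G6pc*, *Alas2*, *Ptf1a*, and the hepatocyte targets and liver factors other than *Nr2f2*, *Zbtb20*, and *Nr5a2* named as changed at E18.5 were named after their values were seen. *Tf*, a listed target, was not analysed here, and some results of listed genes are not reported here.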

Additional observations from a re-analysis of the deposited data

How the results depend on the processing

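All 8 factors were called lower in P2 and in CD31+ than in E14.5 CD54+CD31- cells under each of the 15 alternatives run for either comparison. Between P2 and CD31+ cells, 3 in place of 6 factors were called with all 12 libraries in one fit. Between ages, 5 were called, and from 3 (without E14.5 replicate 1) to 7 (without E18.5 replicate 1) with libraries left out. With the replicate block, 8, 8, 6, and 5 factors were called, as without it, and no call of a factor changed in any of the paired fits. Of the 472 single fold changes, 453 kept direction and side of the threshold. The sign turned for *Foxa1* between P2 and CD31+ cells (from -0.169 to 0.0721 with libraries left out, 0.0721 without CD31+ replicate 1 and 0.0496 without P2 replicate 1) and for *Cebpa* by age (-0.0383 with all 12 libraries in one fit), neither of which passed the test in the report. The authors' factors moved the median of all genes by -0.26 for P2 against CD54+CD31-, -0.37 for P2 against CD31+, and 0.23 by age. With them the share of calls that were higher went from 48.3% to 38.2% in the first, from 46.6% to 33.9% in the second, and from 51.7% to 60.9% by age, *Hnf4a* passed between P2 and CD31+ cells (-0.52, adjusted p = 0.00901), and *Cebpa* by age (0.38, adjusted p = 0.0355). *Onecut2* passed by age with DESeq2 (adjusted p = 0.0317) and with all 12 libraries (adjusted p = 0.018). *Onecut1* did not pass between P2 and CD31+ cells with only their 6 libraries (adjusted p = 0.118). Of the ratios to *Hnf4a*, *Prox1* turned to -0.67 with *Alb* as the reference, *Onecut2* went from 1.33 to 0.07 on the log2 scale, and plain CPM leave these ratios as they are. The cause of these changes was not tested. In simulated counts for the comparison by age over 15692 genes, 58 of 67 genes changed 2-fold were recovered and 14 of 67 changed 1.5-fold. The simulation gave every gene the same dispersion and had no library that stood apart as E18.5 replicate 1 does. These shares therefore do not apply to factors that differ widely among the E18.5 libraries.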
